A study of Mus musculus with 36 samples.

Results

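The genes described here are the heat shock and DnaJ chaperone genes of the mouse, measured by RNA sequencing of the hypothalamus. They were chosen by name: every gene beginning with Hspa or Dnaj, the numbered Hspb genes, the Hsp90 genes, and Hspd1, Hspe1 and Hsph1. Pseudogenes were left out, and a mean of at least 1 normalized count over the libraries was asked for. This gave 67 of the 22447 genes of the table: 12 Hspa genes, Hsph1, 7 Hspb genes, 3 Hsp90 genes, Hspd1 and Hspe1, and 42 DnaJ genes (4 of class A, 11 of class B and 27 of class C). No gene that met the name rule fell under the minimum, and all 67 entered the tests.

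Chaperones hold other proteins in a foldable state. Hsp70 proteins, made from the Hspa genes, bind and release unfolded stretches in a cycle driven by ATP; DnaJ proteins bring them their clients and switch on their ATPase, and Hsph1 exchanges their nucleotide. Hsp90 proteins act late in the folding of kinases and steroid receptors, Hspd1 and Hspe1 form the folding chamber of mitochondria, and the small heat shock proteins of the Hspb group hold clients without ATP. Part of the set is switched on by heat shock factor 1 (HSF1) when proteins misfold in the cytosol, and another part by the unfolded protein response when they misfold in the endoplasmic reticulum. In brain tissue the strongly inducible genes are also known to respond to body temperature, stress and handling.

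The mice fell into 4 groups. The promoter sgRNA group held 6 Sim1 +/- mice carrying a guide to the promoter of Sim1, the enhancer sgRNA group 4 Sim1 +/- mice with a guide for a Sim1 enhancer, the Sim1 heterozygous group 4 Sim1 +/- mice with no guide, and the wild-type group 5 mice. Sim1 encodes a transcription factor of paraventricular neurons, and in CRISPR activation a guide brings a Cas9 that does not cut, joined to an activator, to its target; the labels do not name what drives the guide or the activator. Ages ran from 3 to 9 months in the promoter sgRNA group, 3 to 7 in the enhancer sgRNA group, 4 to 9 in the Sim1 heterozygous group and 3 to 9 in wild type, and the groups held 2, 2, 1 and 1 males in that order. Sim1 heterozygous F_3 and wild type F_2 (F and M stand for the sex) were B6, and all other mice were B6/FVB. Nothing in the labels links libraries to shared animals, and p-values measure the spread between these libraries.

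Values are the authors' normalized counts, which are reads divided by 1 factor for each library and not by gene length, so levels are compared between libraries and not between genes. Within a group, values are listed with females first and males after them, by label number: F_1, F_2, M_1, M_3 with the enhancer sgRNA, F_1, F_3, F_4, M_1 in the Sim1 heterozygous group. Gene coordinates are on GRCm38. The libraries held 14052691 to 84801602 recovered reads, and 1 read was worth 0.361 to 2.14 normalized counts. The 6 hypothalamic neuron markers had a summed level of 9285 to 24435 normalized counts with the promoter sgRNA, 13201 to 18051 with the enhancer sgRNA, 13976 to 22923 in Sim1 heterozygous and 16054 to 30079.5 in wild-type mice. Sim1 itself stood at 155 to 431, 272 to 353, 121 to 329.9 and 305 to 547 normalized counts in the same order of groups. These are pieces of tissue, so fewer cells of a type and less RNA per cell cannot be told apart.

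Single libraries carried much of the variation within the set. Promoter sgRNA M_1 held the highest value of 25 of the 67 genes, and Sim1 heterozygous F_3 held the lowest value of 25 and the highest of 13. In Sim1 heterozygous F_3, neuron markers (6 genes) averaged -0.67 and blood markers (5 genes) 1.41 on the log2 scale relative to their means over all libraries, and astrocyte markers (5 genes) averaged 0.64. Wild type F_2, the other B6 mouse, averaged -0.41, 0.83 and 0.59 on these lists, and the part of strain was not tested. In promoter sgRNA M_1 the same lists averaged -0.18, 0.73 and 0.03, and immediate early genes (6 genes), which answer to handling, averaged -0.50. Libraries also differed in Gm42418, a gene outside the set with a median of 323625 normalized counts. It stood at 3036210 in wild type F_2, 2042940 in Sim1 heterozygous F_4 and 1620510 in promoter sgRNA M_3. In Sim1 heterozygous F_3 it was at 913169 and in promoter sgRNA M_1 at 488147, and its part in the values of these libraries was not tested. Values without Sim1 heterozygous F_3 are given below for the lists and genes that this library moved most.

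Promoter sequences show which of these genes carry the letters bound by the stress factors. Of the 67 genes, 53 matched the RefSeq promoter table (GRCm38.p6), with 70 promoters running from 250 bases before to 50 bases after a start site. The heat shock element, bound by HSF1, is made of GAA units facing in alternating directions. The 2-unit forms GAANNTTC and TTCNNGAA, which read the same on both strands, were found in 17 of these 70 promoters (24.3%), against 15.1% of all 32851 promoters. They lay in 15 of the 53 genes, against 17.0% of all 27025 genes with a promoter. The heat-inducible list was drawn up as HSF1 targets, so a high share in it follows in part from that choice. Among the 15 genes with a 2-unit form were 10 of the 12 heat-inducible genes that had a promoter in the table. The 3-unit form GAANNTTCNNGAA, or TTCNNGAANNTTC on the other strand, contains both of these. It was found in 6 of the 70 (8.57%), belonging to Dnajb6, Hspd1, Hspe1 and Hsph1, against 0.603% of all promoters. By gene this was 4 of the 53, against 0.662% of all 27025 genes. The promoter windows of Dnajb6 overlap each other, as do those of Hsph1 and those of Hspd1 and Hspe1, so the same site was counted in more than 1 promoter. The endoplasmic reticulum stress element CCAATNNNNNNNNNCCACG, searched on both strands, was found in 3 of the 70 (4.29%), those of Hspa5, Hsp90b1 and Dnajc3, against 0.119% of all. A match is a description of letters and says nothing about binding here. The runs printed next, 5′ to 3′ on the strand of the gene and ending at or before the start site, are from genes whose values follow, with the matched letters in capitals.
Hspa1a, minus strand, chr17:34972208-34972305: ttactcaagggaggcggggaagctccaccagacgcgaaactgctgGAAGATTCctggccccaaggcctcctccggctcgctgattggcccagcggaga
Hspb1, plus strand, chr5:135887757-135887874: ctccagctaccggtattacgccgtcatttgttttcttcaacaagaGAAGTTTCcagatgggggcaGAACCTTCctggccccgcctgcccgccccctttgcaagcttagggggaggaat
Hspe1, plus strand, chr1:55088014-55088121: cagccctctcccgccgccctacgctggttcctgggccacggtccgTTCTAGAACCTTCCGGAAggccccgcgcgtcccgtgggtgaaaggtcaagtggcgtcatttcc
Hspa5, plus strand, chr2:34771980-34772088: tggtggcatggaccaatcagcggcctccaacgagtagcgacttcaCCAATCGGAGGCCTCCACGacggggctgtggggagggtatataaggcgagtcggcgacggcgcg
Hsp90b1, minus strand, chr10:86705488-86705694: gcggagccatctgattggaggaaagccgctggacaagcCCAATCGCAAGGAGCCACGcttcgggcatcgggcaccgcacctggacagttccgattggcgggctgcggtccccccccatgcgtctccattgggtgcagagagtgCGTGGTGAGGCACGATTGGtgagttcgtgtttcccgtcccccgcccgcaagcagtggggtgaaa

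The Hspa1a element begins 104 bases before the start site. Hspa1b, its neighbour and near-identical copy, holds the same 98 letters at chr17:34959290-34959387, and the promoters of the pair match in 296 of 300 aligned bases (98.7%). As near-identical copies, Hspa1a and Hspa1b can have their counts split between them, and both counts are uncertain. The identity of their transcripts was not measured here, so the extent of this is not known. Hspd1 and Hspe1 lie head to head, so the run printed for Hspe1 also lies within the promoter window of Hspd1; it holds overlapping 3-unit matches that begin 89 and 84 bases before the Hspe1 start site. The Hspb1 elements begin 117 and 97 bases before its start site, the Hspa5 element 65 bases before, and the pair in Hsp90b1 212 and 107 bases before, the nearer one on the other strand.

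The set as a whole was compared between groups with limma on log2(normalized count + 1) with sex as a covariate, fitted over 20505 genes, and a call meant a Benjamini-Hochberg adjusted p under 0.05 over all of them. With the promoter sgRNA against the Sim1 heterozygous group, 0 of the 67 chaperone genes were called (background 0%), and the smallest adjusted p among them was 0.934. At an unadjusted p under 0.05 there were 2 higher (Dnajc21 and Hsp90aa1) and 2 lower (Dnajc22 and Hspb8), where 1.39% and 2.68% of all genes passed in these directions. The median log2 fold change of the set was 0.06, with 44 genes above 0 and 23 below, and 50.1% of all genes tested lay above 0. Without promoter sgRNA M_1 and Sim1 heterozygous F_3 the set had 27 genes above and 40 below 0, with a median of -0.03. These libraries were chosen after seeing the data. The first often held the highest and the second the lowest value, so leaving them out lowers this comparison by that choice. Without promoter sgRNA M_1 alone 38 were above and 29 below 0, and without Sim1 heterozygous F_3 alone 35 and 32.

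With the enhancer sgRNA against the Sim1 heterozygous group, 0 of 67 were called (background 0%; smallest adjusted p 0.678). At an unadjusted p under 0.05 there were 1 higher (Dnajc21) and 4 lower (Hspb8, Dnajb13, Hspb11 and Dnajc24), and 2.9% and 3.77% of all genes passed in these directions. The median was -0.02, with 31 above and 36 below 0. In the Sim1 heterozygous group against wild type, 0 of 67 were called (background 0%; smallest adjusted p 0.868), and none reached an unadjusted p under 0.05, where 2.02% of all genes did so on the higher side and 1.72% on the lower. The median was 0.00, with 35 above and 32 below 0; without Sim1 heterozygous F_3 it was 0.06, with 48 above and 19 below.

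The remaining comparisons also called 0 of 67 genes with a background of 0%. At an unadjusted p under 0.05 there were 3 genes with the enhancer against the promoter sgRNA (2.44% of all genes), 2 with the promoter sgRNA against wild type (2.11%), and 0 with the enhancer sgRNA against wild type (1.26%). Any difference among the 4 groups was called for 0 of 67 (background 0%), with 2 genes at an unadjusted p under 0.05 (2.38%). On recovered reads, edgeR called 0 of the 67 in all 6 comparisons, with a background of 0%. DESeq2 also called 0 of the 67 in all 6, where it called 0.0146%, 0.0634% and 0.0341% of all genes in the promoter sgRNA, enhancer sgRNA and Sim1 heterozygous comparisons and 0% in the other 3. At an unadjusted p under 0.05, edgeR had 3, 5 and 0 chaperone genes in these 3 comparisons, against 4.21%, 7.09% and 4.55% of all genes. DESeq2 had 3, 6 and 0, against 4.32%, 7.52% and 4.72%. The counts with either sgRNA thus lay near the share of all genes, while 0 of 67 was below it.

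The intervals bound what could have gone unseen. With the promoter sgRNA the 95% interval of the fold change excluded a 2-fold difference in either direction for 56 of the 67 genes and a 1.5-fold difference for 46. With the enhancer sgRNA this held for 53 and 39, and in the Sim1 heterozygous group against wild type for 55 and 46. The intervals of Hspa1b, Hspb1, Hspa8 and Dnajc22 reached past 2-fold in all 3 comparisons, and those of Hspa1a in the last 2, so a change of that size in these genes could have gone undetected.

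**Figure D1:**
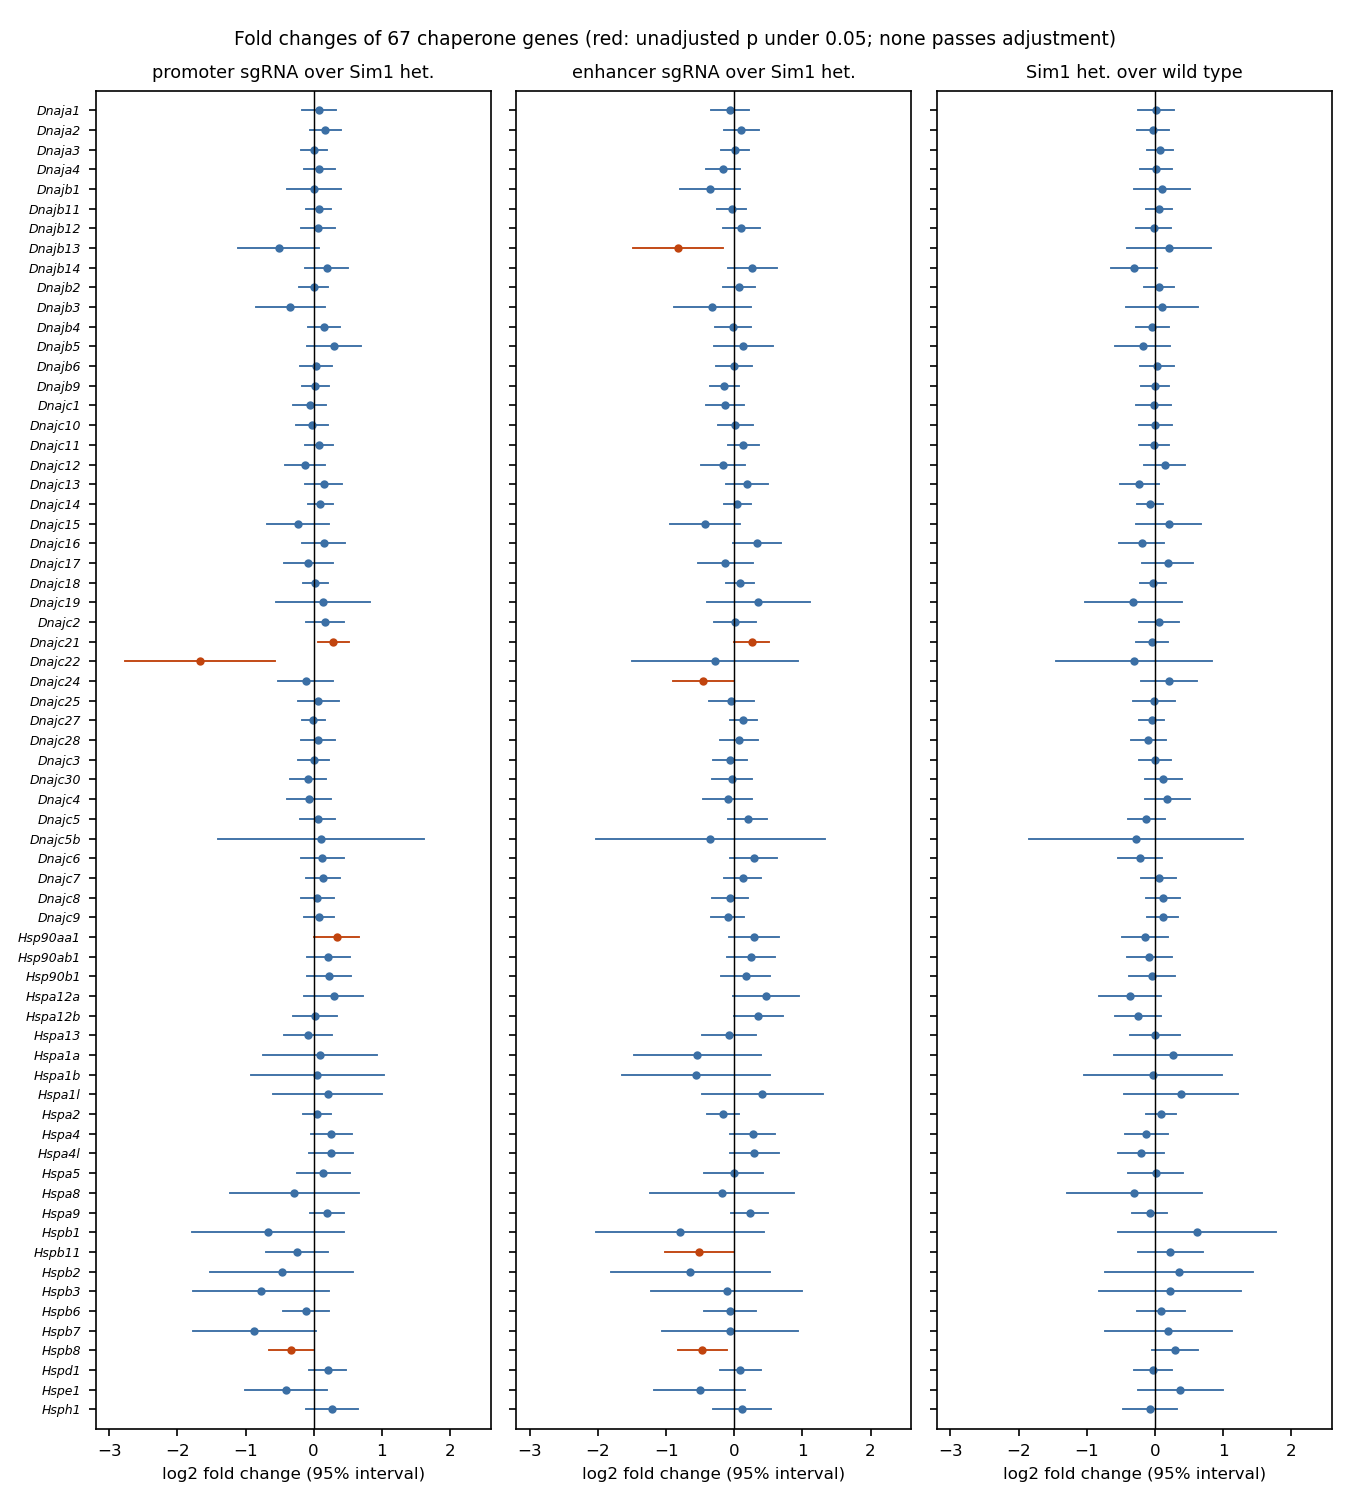
Log2 fold changes (points) with 95% intervals (lines) of the 67 chaperone genes, for the promoter sgRNA over Sim1 heterozygous, the enhancer sgRNA over Sim1 heterozygous and Sim1 heterozygous over wild type; red marks an unadjusted p under 0.05. Red points number 4, 5 and 0, Dnajc22 lies farthest from 0 with the promoter sgRNA at -1.67, and Dnajc5b, Hspb1 and Dnajc22 have wide intervals.

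Hspa1a and Hspa1b encode the Hsp70 that cells make on stress, and are the strongest heat-inducible members. Hspa1a (ENSMUSG00000091971, chr17:34969190-34972156) ran with the promoter sgRNA from 89.7 through a median of 203 to 596 normalized counts. It stood at 166, 77.0, 212 and 141 in the enhancer sgRNA libraries, and at 221, 94.4, 139 and 349.7 in the Sim1 heterozygous libraries. The wild-type libraries held 113, 114, 221, 104 and 212. All groups overlapped, and the highest library was promoter sgRNA M_1, followed by Sim1 heterozygous M_1. The log2 fold change was 0.10 (SE 0.400) with the promoter sgRNA, -0.54 (SE 0.444) with the enhancer sgRNA and 0.26 (SE 0.415) in the Sim1 heterozygous group against wild type, with limma's adjusted p at 0.980, 0.719 and 0.911.

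Hspa1b (ENSMUSG00000090877, chr17:34956436-34959238) followed with 101 to 855 normalized counts around a median of 228 with the promoter sgRNA, where M_1 again held the top value. The enhancer sgRNA libraries lay between 144 and 228, the Sim1 heterozygous libraries between 83.2 and 367 and wild type between 146 and 329. Its log2 fold changes were 0.05 (SE 0.467), -0.56 (SE 0.519) and -0.02 (SE 0.485). Without promoter sgRNA M_1 and Sim1 heterozygous F_3 the promoter sgRNA value of Hspa1a became -0.40 and that of Hspa1b -0.75. These libraries held the highest promoter sgRNA and lowest Sim1 heterozygous values of both genes, so leaving them out lowers both fold changes by that choice.

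Dnajb1, the DnaJ partner of the inducible Hsp70, reached 6373 normalized counts in promoter sgRNA M_1, with a lowest value of 2764 and a median of 3840 in that group. Its 4 enhancer sgRNA libraries held 3031, 2748, 3763 and 2891, the Sim1 heterozygous libraries 4437, 2689, 3586 and 4781, and wild type 2827 to 4027. The log2 fold change was 0.00 (SE 0.189) with the promoter sgRNA and -0.36 (SE 0.210) with the enhancer sgRNA, and the groups overlapped. Hsph1, the Hsp110 nucleotide exchange factor, stood at 10443 to 17676 with the promoter sgRNA and 9805 to 13360 with the enhancer sgRNA. It held 13832, 6854, 11665 and 13244 in the Sim1 heterozygous libraries and 10332 to 12874 in wild type, with Sim1 heterozygous F_3 the lowest of all. Its log2 fold change was 0.27 (SE 0.181) with the promoter sgRNA and 0.11 (SE 0.201) with the enhancer sgRNA, and without that library 0.04 and -0.10.

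Hspb1, the inducible small heat shock protein Hsp27, had the widest spread of the 60 members with a mean of at least 50 (SD 0.88 on the log2 scale). With the promoter sgRNA it ran from 5.3 in M_3 through a median of 63.8 to 118 in M_1. The enhancer sgRNA libraries held 27.5, 48.0, 48.2 and 40.7, the Sim1 heterozygous libraries held 54.0, 77.0, 98.8 and 73.9, and wild type held 40.9 to 56.7. Every enhancer sgRNA library lay below every Sim1 heterozygous library. A two-sided exact permutation test gave p = 0.0286 over 70 splits, the smallest this design allows, and 0.386 after adjustment over the 27 tests of 9 genes in 3 comparisons. For the Sim1 heterozygous group against wild type the exact permutation p was 0.0159 and 0.386 after the same adjustment. Limma, which shares the spread of all libraries and takes sex into account, gave -0.80 (SE 0.591, adjusted p = 0.705) and 0.62 (SE 0.553, adjusted p = 0.871).

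**Figure D2:**
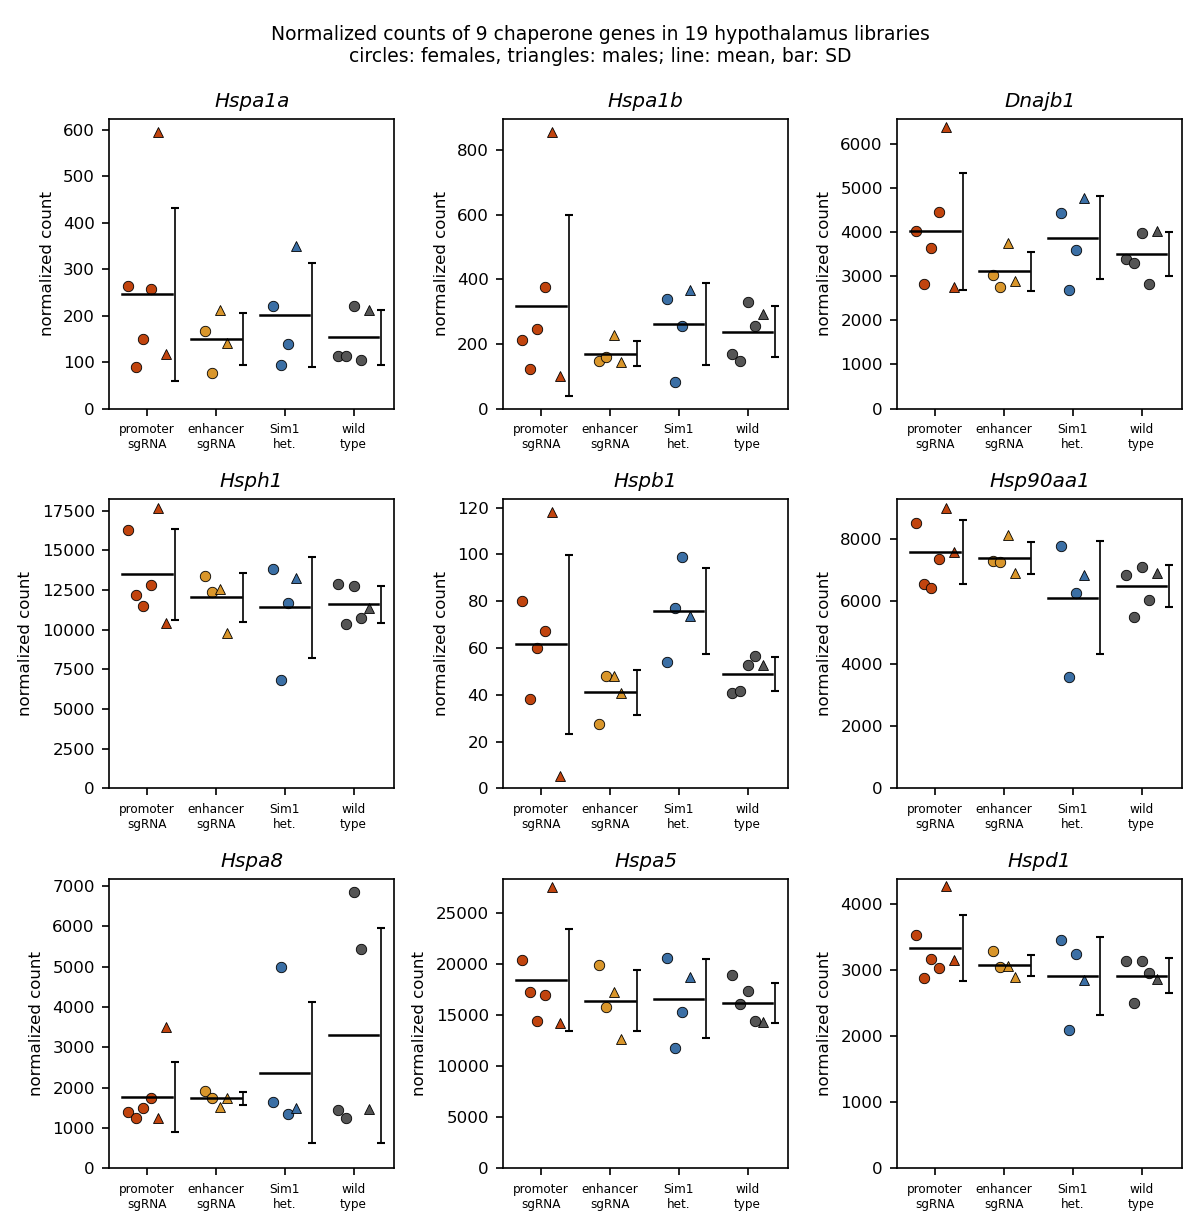
Normalized counts (vertical axes, from 0) of 9 chaperone genes in each of the 19 libraries by group, with females as circles, males as triangles, the group mean as a line and the SD as a bar. Promoter sgRNA M_1 is the top point for Hspa1a, Hspa1b, Dnajb1, Hsph1, Hspb1, Hsp90aa1, Hspa5 and Hspd1, and Hspa8 falls into a low band of 15 libraries and 4 libraries well above it.

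The 15 genes of the heat-inducible list, which include the constitutive Hspa8, had medians within 0.17 of 0 in the 3 main comparisons. With the promoter sgRNA 11 were higher and 4 lower than in the Sim1 heterozygous group, with a median log2 fold change of 0.08. With the enhancer sgRNA 5 were higher and 10 lower (-0.17), and in the Sim1 heterozygous group against wild type 7 were higher and 8 lower (-0.02). None was called in any of these. Without promoter sgRNA M_1 and Sim1 heterozygous F_3, a setting chosen after seeing the data, 4 were higher and 11 lower with the promoter sgRNA. In this setting the counts were 4 and 11 with the enhancer sgRNA, and 14 and 1 in the Sim1 heterozygous group against wild type. With the promoter sgRNA they were 7 and 8 without promoter sgRNA M_1 alone, and 9 and 6 without Sim1 heterozygous F_3 alone.

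Hsp90aa1, the inducible cytosolic Hsp90, was higher with the promoter sgRNA at an unadjusted p of 0.0429 (log2 fold change 0.34, SE 0.158, limma's adjusted p = 0.934). Its promoter sgRNA libraries ran from 6430 through a median of 7489 to 9009 normalized counts, and its Sim1 heterozygous libraries held 7782, 3579, 6277 and 6847. The groups overlapped, and Sim1 heterozygous F_3 lay far below the rest; without it the log2 fold change was 0.12. Enhancer sgRNA libraries held 6911 to 8132 and wild type 5505 to 7097. All 3 Hsp90 genes were above 0 in both sgRNA comparisons, with medians of 0.22 and 0.25, and all 3 were below 0 in the Sim1 heterozygous group against wild type (-0.08), which turned to 3 above 0 without Sim1 heterozygous F_3. Neuron markers lay on the same sides, with 6 of 6 above 0 with the promoter sgRNA (median 0.26) and the enhancer sgRNA (0.27) and 6 of 6 below 0 in the Sim1 heterozygous group against wild type (-0.11). Without that library 5 and 6 of the 6 neuron markers were above 0 with the sgRNAs (0.13 and 0.14) and 4 in the Sim1 heterozygous group against wild type (0.03), and the medians of the Hsp90 genes with the sgRNAs were 0.08 and 0.07. Summed neuron markers lay at 108653 to 169546 normalized counts with the promoter sgRNA, 104862 to 151860.0 with the enhancer sgRNA, 79156 to 134694 in Sim1 heterozygous and 97180.3 to 138353 in wild-type libraries. The part of neuron content in the Hsp90 values was not tested.

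Hspa8 encodes the constitutive Hsp70, which among other tasks uncoats clathrin vesicles at synapses. Its values fell into separate levels that cut across the groups. Of the 19 libraries 15 lay between 1238 and 1924 normalized counts, and 4 lay between 3510 and 6861, a gap of 0.87 on the log2 scale. The 4 were promoter sgRNA M_3 at 3510, Sim1 heterozygous F_3 at 4983, wild type F_3 at 6861 and wild type F_4 at 5449.6. Enhancer sgRNA libraries held 1924, 1749, 1520.1 and 1743, all in the low level. Markers of choroid plexus and ependyma (6 genes) averaged 1.69, -0.35, 1.66 and 3.10 in these 4 libraries on the log2 scale relative to all libraries. They averaged 2.54 in promoter sgRNA F_5, where Hspa8 was at 1744.5, and their part in the pattern was not tested. The log2 fold changes of Hspa8 were -0.28 (SE 0.456), -0.19 (SE 0.506) and -0.30 (SE 0.473) in the promoter sgRNA, enhancer sgRNA and Sim1 heterozygous comparisons. Processed copies of Hspa8 lie elsewhere in the mouse genome, as do copies of Gapdh, which stood at only 56.4 to 325 normalized counts; the treatment of reads that match several places was not given in the labels, so the counts of Hspa8 are uncertain.

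In the endoplasmic reticulum Hspa5, the Hsp70 known as BiP, and Hsp90b1, its Hsp90 partner, carry the stress elements printed above. Hspa5 (ENSMUSG00000026864, chr2:34771970-34777547) ran from 14235 through a median of 17097 to 27546 normalized counts with the promoter sgRNA and stood at 12701 to 19961 with the enhancer sgRNA. It held 20621, 11784, 15337 and 18754 in the Sim1 heterozygous libraries and 14374 to 18908 in wild type. The groups overlapped, with log2 fold changes of 0.14 (SE 0.187), -0.01 (SE 0.208) and 0.01 (SE 0.194), and of -0.01, -0.15 and 0.17 without Sim1 heterozygous F_3. Hsp90b1 held 16227 to 25999 with the promoter sgRNA and 12978 to 22123 in Sim1 heterozygous libraries, at a log2 fold change of 0.22 (limma's adjusted p = 0.934), and of 0.08 without Sim1 heterozygous F_3. Of the 13 genes of the endoplasmic reticulum list, 10 were higher and 3 lower with the promoter sgRNA (median 0.06), 7 and 6 with the enhancer sgRNA (0.01), and 6 and 7 in the Sim1 heterozygous group against wild type (-0.01). None was called and none had an unadjusted p under 0.05. The balance of this list turned on Sim1 heterozygous F_3: without it 3 were higher and 10 lower with the promoter sgRNA (-0.03), 6 and 7 with the enhancer sgRNA (-0.08), and 10 and 3 in the Sim1 heterozygous group against wild type (0.07). Dnajb14, a DnaJ protein of the endoplasmic reticulum membrane, had the smallest p of the set in the Sim1 heterozygous comparison (log2 fold change -0.30, SE 0.159, limma's adjusted p = 0.868), with 3753, 1989, 3146 and 3987 normalized counts in Sim1 heterozygous and 3408 to 4361 in wild-type libraries. The low value is that of F_3, and without it the log2 fold change was -0.10.

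In mitochondria Hspd1 (Hsp60) stood at 2887 to 4269.5 normalized counts with the promoter sgRNA, 2895 to 3291 with the enhancer sgRNA, 2098 to 3451 in Sim1 heterozygous and 2498 to 3141 in wild-type libraries. Its log2 fold changes were 0.21 (SE 0.130), 0.09 (SE 0.144) and -0.03 (SE 0.135), and 0.06, -0.05 and 0.12 without Sim1 heterozygous F_3. Its co-chaperonin Hspe1, transcribed from the other side of the same promoter region, did not follow it: Hspe1 was highest in Sim1 heterozygous F_3 at 1583, where Hspd1 was lowest of all, and lowest in promoter sgRNA M_3 at 245. Hspd1 and Hspe1 overlap on opposite strands, and nothing states whether counting used the strand. Of the 9 mitochondrial genes 6 were higher and 3 lower in both sgRNA comparisons (medians 0.07 and 0.07), and 4 were higher and 5 lower in the Sim1 heterozygous group against wild type (-0.01). None of the 9 was called. Without Sim1 heterozygous F_3, 5 were higher and 4 lower with the promoter sgRNA (0.04), 4 and 5 with the enhancer sgRNA (-0.04), and 6 and 3 in the Sim1 heterozygous group against wild type (0.05).

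At the synapse Dnajc5 protects vesicle proteins from misfolding, Dnajc6 recruits Hsp70 to clathrin coats and Dnajc13 works on endosomes. All 3 were above 0 with either sgRNA (medians 0.13 and 0.20) and below 0 in the Sim1 heterozygous group against wild type (-0.22), with no call and no unadjusted p under 0.05. Sim1 heterozygous F_3 held the lowest value of each, at 9139, 6759 and 1118 normalized counts. In that library the list averaged -0.65 on the log2 scale and neuron markers -0.67, and the part of neuron content was not tested. Without it 1 of the 3 was above 0 with the promoter sgRNA, all 3 with the enhancer sgRNA and 1 in the Sim1 heterozygous group against wild type.

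Of the chaperone lists, the small heat shock genes had the median farthest from 0. This list of 7 goes by gene name and includes Hspb11, an intraflagellar transport protein. All 7 were below 0 with the promoter sgRNA (median -0.47) and with the enhancer sgRNA (-0.47), both set against the same Sim1 heterozygous libraries, and all 7 were above 0 in those libraries against wild type (0.23). The medians of all 67 chaperone genes were 0.06, -0.02 and 0.00. The small heat shock gene Cryab, outside the name rule, was at 0.02 (SE 0.271) with the promoter sgRNA. It was at -0.58 (SE 0.301) with the enhancer sgRNA and 0.42 (SE 0.281) in the Sim1 heterozygous group against wild type. None of the 7 genes of the list was called. Hspb2, Hspb3 and Hspb7 averaged only 11.8, 16.0 and 8.88 normalized counts. Hspb8, which with its partner Bag3 hands clients to autophagy, was the leading gene. It held 942 to 1173 normalized counts with the promoter sgRNA and 768 to 1099 with the enhancer sgRNA, against 1049, 1669, 1426 and 1335.5 in Sim1 heterozygous libraries and 794 to 1533 in wild type. The ranges of both sgRNA groups overlapped that of the Sim1 heterozygous group. Hspb8 was highest in Sim1 heterozygous F_3, and without that library its unadjusted p in limma stayed under 0.05 only with the enhancer sgRNA. Its log2 fold change was -0.34 (SE 0.155) with the promoter sgRNA, -0.47 (SE 0.172) with the enhancer sgRNA and 0.30 (SE 0.161) in the Sim1 heterozygous group against wild type, and limma's adjusted p was 0.934, 0.678 and 0.868.

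Sim1 heterozygous F_3, at 0.82, was the library where this list stood highest (mean log2 deviation), and promoter sgRNA M_3, at -0.82, the one where it stood lowest. Without Sim1 heterozygous F_3 the counts below 0 were 7 of 7 with the promoter sgRNA and 5 of 7 with the enhancer sgRNA, with medians of -0.25 and -0.23, and 4 of 7 were above 0 in the Sim1 heterozygous group against wild type (0.00). Microglial markers (5 of 5), meningeal markers (5 of 5) and blood markers (4 of 5) were also below 0 in both sgRNA comparisons, and 5, 5 and 4 of them were above 0 in the Sim1 heterozygous group against wild type. Astrocyte markers were below 0 in 5 of 5 in both sgRNA comparisons. Without Sim1 heterozygous F_3, 3 of 5 astrocyte markers were below 0 with the promoter sgRNA and 4 of 5 with the enhancer sgRNA. Against wild type, 1 of 5 was then above 0 in the Sim1 heterozygous group. Microglial (5 of 5, median 0.25), meningeal (5 of 5, 0.27) and blood markers (4 of 5, 1.13) stayed above 0 there, unlike the small heat shock list. Summed microglial markers lay at 6073 to 8158 normalized counts with the promoter sgRNA, 6332 to 7358 with the enhancer sgRNA, 7515 to 9053 in Sim1 heterozygous and 6070.2 to 7601 in wild-type libraries. Summed blood markers lay at 2701 to 6538, 3072 to 7461, 5939 to 19995 and 2744 to 14160.2 in the same order of groups, and meningeal markers at 1259 to 1810.2, 1079.6 to 2579, 1199.5 to 2995 and 1178 to 2252. The part of these cells in the small heat shock values was not tested. Hspb2, a muscle-enriched member, and Hspb6 overlap other genes on the opposite strand, Hspb2 with Cryab at a mean of 3642 normalized counts, and their counts are uncertain for that reason.

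**Figure D3:**
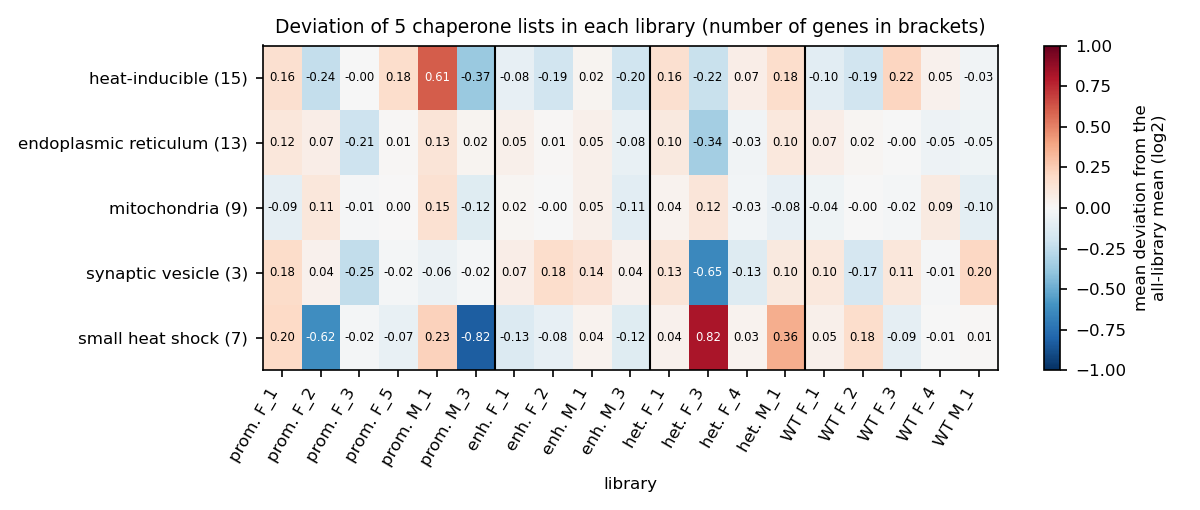
Mean deviation of 5 chaperone lists from their all-library mean (log2, colour and printed value) in each library, in the order promoter sgRNA, enhancer sgRNA, Sim1 heterozygous and wild type. The heat-inducible list is highest in promoter sgRNA M_1 (0.61), and Sim1 heterozygous F_3 combines a low synaptic list (-0.65) with a high small heat shock list (0.82).

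Among the DnaJ genes outside the lists above, Dnajc22 had the largest differences. Its Drosophila counterpart, Wurst, is a membrane protein needed for endocytosis in the airways. It was lower with the promoter sgRNA, at 6.4, 10.7, 1.0, 9.9, 4.3 and 0.6 normalized counts in F_1, F_2, F_3, F_5, M_1 and M_3, against 14.5, 6.2, 26.0 and 23.1 in the Sim1 heterozygous libraries. Enhancer sgRNA libraries held 14.8, 18.4, 8.4 and 7.3, and wild type held 19, 23, 15.1, 18.8 and 23.2. Every promoter sgRNA library lay below every wild-type library, while the promoter sgRNA and Sim1 heterozygous ranges overlapped. These are few reads, 1 to 6 in each promoter sgRNA library and 14 to 52 in each wild-type library. The log2 fold change was -1.67 (SE 0.526, limma's adjusted p = 0.934) against Sim1 heterozygous and -1.98 (SE 0.495, adjusted p = 1.00) against wild type. Over the 19 fits that each left out 1 library, the first of these ran from -2.11 to -1.28. Dnajc22 with the enhancer sgRNA was at -0.29 (SE 0.584) against Sim1 heterozygous and at 1.38 (SE 0.529, limma's adjusted p = 0.999) against the promoter sgRNA.

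Dnajc21, a ribosome biogenesis factor, was at 1044 to 1354 normalized counts with the promoter sgRNA (median 1172) and at 1247, 1179, 1152 and 1142 with the enhancer sgRNA, against 1157, 887, 985 and 909 in Sim1 heterozygous libraries. Wild type held 799 to 1128. The log2 fold change was 0.29 (SE 0.110, limma's adjusted p = 0.934) with the promoter sgRNA and 0.26 (SE 0.122, adjusted p = 0.678) with the enhancer sgRNA. Without Sim1 heterozygous M_1 these were 0.23 and 0.19, with unadjusted p-values no longer under 0.05. Dnajb13, a protein of the radial spokes of motile cilia, held 73.1, 62.2, 77.5 and 28.2 with the enhancer sgRNA and 83.6, 158, 75.4 and 116 in Sim1 heterozygous libraries. Its log2 fold change was -0.82 (SE 0.315, limma's adjusted p = 0.678), and the groups overlapped. Dnajb13 was highest in Sim1 heterozygous F_3, and without that library its unadjusted p in limma was no longer under 0.05. It overlaps Ucp2 on the opposite strand. Hspb11, an intraflagellar transport protein, and Dnajc24, which takes part in diphthamide synthesis, were at -0.51 (SE 0.242) and -0.45 (SE 0.213) with the enhancer sgRNA, each with an adjusted p = 0.678 in limma. Both stood highest in Sim1 heterozygous F_3 (625 and 425 normalized counts), and both were at -0.30 without it.

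Further genes with a small p were the Hsp110-type relatives of Hsp70, Hspa4 and Hspa4l, at 0.26 (SE 0.144) and 0.26 (SE 0.155) with the promoter sgRNA, and the mitochondrial Hsp70 gene Hspa9 at 0.20 (SE 0.119). Hspb7 and Hspb3, small heat shock genes known from muscle, were at -0.87 (SE 0.431) and -0.77 (SE 0.479) in the same comparison. The divergent Hsp70 relatives Hspa12a and Hspa12b were at 0.47 (SE 0.232) and 0.36 (SE 0.174) with the enhancer sgRNA and at -0.36 (SE 0.217) and -0.24 (SE 0.162) in the Sim1 heterozygous group against wild type. Dnajc16 was at 0.34 (SE 0.169) and Dnajc15, of the mitochondrial inner membrane, at -0.43 (SE 0.245) with the enhancer sgRNA. In the Sim1 heterozygous group against wild type Dnajc13 was at -0.23 (SE 0.137), Hspe1 at 0.38 (SE 0.301) and Dnajc4 at 0.19 (SE 0.161). None of these passed the test. Many of them turned on Sim1 heterozygous F_3. Without it the promoter sgRNA values of Hspa4, Hspa4l, Hspa9 and Hspb7 were 0.05, 0.04, 0.08 and -0.53, while Hspb3 was at -0.78. Hspa12a, Dnajc16 and Dnajc15 were at 0.21, 0.14 and -0.14 without it with the enhancer sgRNA, and Hspa12b at 0.35. For the Sim1 heterozygous group against wild type, Hspa12a, Dnajc13, Hspe1 and Dnajc4 were at -0.08, -0.08, 0.09 and -0.04 without it, and Hspa12b at -0.24.

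Sex, a covariate of the fit, was compared over 6 males and 13 females. None of the 67 genes was called between males and females (background 0.039%, 8 of 20505 genes). At an unadjusted p under 0.05 there was 1 higher in males, Hspa1a, and 1 lower, Dnajc17, where 1.29% and 1.84% of all genes passed in these directions. Hspa1a averaged 271 ± 178 normalized counts in males (SD, n = 6) and 155 ± 65.6 in females (SD, n = 13), a log2 difference of 0.76 (SE 0.314, limma's adjusted p = 0.999). Without promoter sgRNA M_1 the difference was 0.50. The M_1 males of the promoter sgRNA, Sim1 heterozygous and wild-type groups were 9 months old, older than any female, so sex and age are partly joined in these groups.

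Within and across groups, the levels of some members were related from library to library. The relations of 8 pairs were computed on log2 values, with permutation tests of 100000 resamples and adjustment over the pairs. All 19 libraries were used, except for Hsp90aa1 and Hspa8. Hspa1a and Dnajb1 had the closest relation (Pearson r = 0.937, permutation p = 1e-05, the smallest the resampling can give, adjusted 4e-05; Spearman rho = 0.921, permutation p = 1e-05). Without the 2 libraries farthest from the median of Hspa1a, Sim1 heterozygous M_1 and promoter sgRNA M_1, r was 0.877. Residuals after removal of group and sex gave r = 0.941. Hspa1a and Hspa1b had r = 0.832 (permutation p = 3e-05, adjusted 8e-05; rho = 0.742, p = 0.00041) and 0.700 without the same libraries. The part of reads split between these copies in this relation was not tested. Hspa1a and Hsph1 had r = 0.670 (permutation p = 0.00216, adjusted 0.00346; rho = 0.646, p = 0.00345) and 0.546 without them.

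In the endoplasmic reticulum Hspa5 and Hsp90b1 had r = 0.900 (permutation p = 1e-05, adjusted 4e-05; rho = 0.858, p = 1e-05) and 0.825 without Sim1 heterozygous F_3 and promoter sgRNA M_1. Hspa5 and Dnajb11, a DnaJ co-chaperone of BiP, had r = 0.413 (permutation p = 0.0802, adjusted 0.107; rho = 0.244, p = 0.315), and 0.03 without the same libraries. Across compartments Hspa1a and Hspa5 had r = 0.679 (permutation p = 0.00135, adjusted 0.0027; rho = 0.547, p = 0.0166), but 0.455 (adjusted permutation p = 0.106) without Sim1 heterozygous M_1 and promoter sgRNA M_1. For Hspa1a and Hspa5 the residuals after removal of group and sex gave r = 0.753 (adjusted permutation p = 0.000416), and leaving out promoter sgRNA F_5 and M_3, Sim1 heterozygous F_4 and wild type F_2 gave r = 0.680 (adjusted permutation p = 0.011). The relation of the levels thus missed the threshold only in the first of these 3 settings, without its most distant libraries. Hspd1 and Hspe1, which share a promoter region, had r = -0.264 (permutation p = 0.263, adjusted 0.3; rho = -0.06, p = 0.802). Since Hspa8 falls into separate levels, its relation to Hsp90aa1 was taken over the 15 libraries of the low level. This gave r = 0.188 (permutation p = 0.503, adjusted 0.503; rho = 0.361, p = 0.189). All 19 libraries had been planned, and the value over them is not given. The cut came from these same values and narrows the range of Hspa8.

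**Figure D4:**
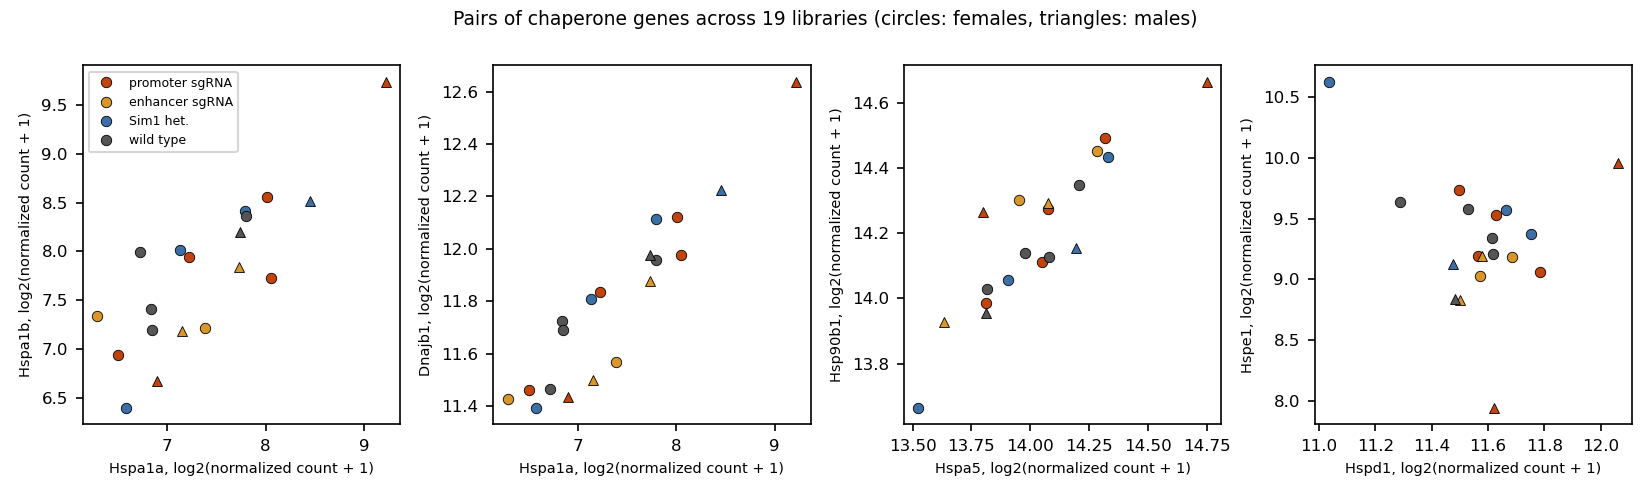
Log2(normalized count + 1) of pairs of chaperone genes, 1 point per library (circles females, triangles males, colour the group). Libraries high in Hspa1a are high in Hspa1b and Dnajb1, and those high in Hspa5 are high in Hsp90b1, with promoter sgRNA M_1 at the top, while Hspd1 and Hspe1 form no line and Sim1 heterozygous F_3 sits at low Hspd1 and high Hspe1.

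Over all 105 pairs of the heat-inducible list the median correlation of residuals was 0.48, with 78 pairs above 0. It was 0.39 over the 78 pairs of the endoplasmic reticulum list, -0.04 over the 36 mitochondrial pairs and 0.09 over the 2211 pairs of all 67 genes. These are correlations over libraries that share preparation and depth and are given as a description. Of the 66 other members, those most like Hspa1a by the correlation of residuals over 19 libraries were Dnajb1 (0.94), Hspa1b (0.84), Dnajb4 (0.79), Hsph1 (0.76) and Hspa5 (0.75).

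The spread over libraries differed widely within the set. Of the 60 members with a mean of at least 50 normalized counts, the median SD of log2 values was 0.21, against 0.23 for the 13704 genes of the table at that level. The steadiest were Dnajc27, Dnajc18, Dnaja3, Dnajc14 and Dnajb11, with SDs of 0.10 to 0.12 and highest values 1.31 to 1.44 times the lowest. The most variable were Hspb1 (0.88), Hspa1b (0.79), Hspa8 (0.77), Hspa1a (0.75) and Hspe1 (0.54), and the highest library was 22.3 times the lowest for Hspb1 and 10.3 times for Hspa1b. Hspa1a, Hspa1b, Hspa8 and Hspb1 each had a larger SD than at least 97.7% of genes at that level. At the low end Dnajc5b, a testis-enriched relative of Dnajc5, averaged 1.26 normalized counts, the member nearest to the minimum, and was listed at 0 in 11 of 19 libraries.

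Of the genes of the same pathways outside the name rule, none was called. Of 25 heat shock factors and co-chaperones, 13 were above and 12 below 0 with the promoter sgRNA (median 0.02), 12 and 13 with the enhancer sgRNA (-0.00), and 17 and 8 in the Sim1 heterozygous group against wild type (0.09), the last of which was 23 and 2 (0.10) without Sim1 heterozygous F_3. Hsf1 itself lay between 879 and 1262 normalized counts in all libraries, with log2 fold changes of -0.00 (SE 0.107), 0.05 (SE 0.119) and 0.05 (SE 0.111). Chordc1, an Hsp90 co-chaperone induced by heat, was at 0.28 (SE 0.115, limma's adjusted p = 0.934) with the promoter sgRNA, and Bag1, a nucleotide exchange factor of Hsp70, at -0.34 (SE 0.155, adjusted p = 0.678) with the enhancer sgRNA. Of 18 genes of the unfolded protein response, 12 were above 0 with the promoter sgRNA, 7 with the enhancer sgRNA and 11 in the Sim1 heterozygous group against wild type, and 8, 3 and 15 without Sim1 heterozygous F_3. Eif2ak3, the kinase PERK, was at 0.29 (SE 0.140, limma's adjusted p = 0.934) with the promoter and 0.34 (SE 0.156, adjusted p = 0.678) with the enhancer sgRNA. Manf and Sdf2l1, which assist folding in the endoplasmic reticulum, were at -0.31 (SE 0.124) and -0.45 (SE 0.197) with the enhancer sgRNA, each with an adjusted p = 0.678 in limma. Without Sim1 heterozygous F_3, Bag1 was at -0.19 and Eif2ak3 at 0.16 with the enhancer sgRNA, and Eif2ak3 at 0.11 with the promoter sgRNA.

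In the authors' deposited table, 0 of the 67 genes had a false discovery rate under 0.05 in any of its 3 comparisons. Of the 22447 genes of the table, 9 passed in the promoter comparison, 7 in the enhancer comparison and 19 in the genotype comparison. At so low a share, 0 of 67 is not particular to the chaperone genes. The smallest unadjusted p among the 67 genes in the authors' deposited table was 0.00275 for Dnajc22 in the promoter comparison (log2 fold change -2.13). It was 0.0306 for Hspb8 in the authors' enhancer comparison (-0.46) and 0.133 for Dnajb14 in their genotype comparison (-0.21). The headers name the promoter and enhancer comparisons as sgRNA yes against no. They do not state the groups or covariates used, so these values need not match those against the Sim1 heterozygous group.

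Cas9 binding was read from 6 deposited peak lists of 92 to 205 peaks, 1 for each guide, antibody and tissue or cell line, on the same build as the gene table by the place of their Sim1 peaks, which lay 37 to 50 bp from Sim1. No peak overlapped any of the 67 genes. In hypothalamus the nearest peak in the S. pyogenes Cas9 lists lay 94.5 kb from Dnajc6, for both guides, and in the S. aureus Cas9 lists 965 kb from Dnajc9 for the enhancer guide and 500.3 kb from Dnajc24 for the promoter guide. In Neuro2A, a mouse neuroblastoma line, it lay 21.9 kb from Dnajb12 for the enhancer guide, at chr10:59921215-59921859 with a fold enrichment of 32.0 by the authors' caller. For the promoter guide in Neuro2A it lay 965 kb from Dnajc9. Dnajb12, a membrane DnaJ protein of the endoplasmic reticulum, had a log2 fold change of 0.11 (SE 0.131, limma's adjusted p = 0.813) with the enhancer sgRNA in hypothalamus, a tissue other than that of this peak.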

How the data were processed

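The authors deposited 1 table of hypothalamus RNA sequencing with normalized counts for 19 libraries. In this deposited signal each library's reads share 1 scaling factor, with values given to 1 decimal, and 99.83% or more of the genes in each library came out as whole reads within 0.0505 normalized counts. The count tests planned for raw counts became limma on log2 values for this reason. The submitters' processing notes name CASAVA 1.8, STAR 2.5.2b, MACS2 2.1.1.20160309, DESeq2 1.16.1 and build mm9, with no roles. The table's coordinates, however, lie on GRCm38, where all 67 genes overlap the RefSeq gene of the same symbol. The counter and strand setting were not given in the sources used here. The deposited log2 fold changes, p-values and false discovery rates are the authors' own. The pileup signal, fold enrichment (a ratio) and −log10 q-values of the deposited peaks are named so per the file headers, which do not state how replicates and controls were combined.

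Limma 3.58.1 (R 4.3.3, trended empirical Bayes) was fitted to log2(normalized count + 1) over 20505 genes with a mean of at least 1, all 19 libraries and sex as covariate, with Benjamini-Hochberg adjustment over all genes. Fold changes are on this scale, which understates changes of low genes. EdgeR 4.0.16 and DESeq2 1.42.0 were run on recovered reads, and single genes were tested by exact permutation (SciPy 1.17.1). Scripts were tested on simulated data. The promoter and enhancer sgRNA groups were set against the same Sim1 heterozygous libraries, so these comparisons are not independent. The members and lists were chosen with earlier results of these data known, and the named genes are 9 leading stress genes, those of smallest unadjusted p in each main comparison, those of smallest and largest spread and the member nearest to the minimum. Alternatives changed the pseudocount, filter, scaling, tool, covariates, block and libraries.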

Additional observations from a re-analysis of the deposited data

Results flagged for a closer look

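Hspa8 in promoter sgRNA M_3 stood at 3510.2 normalized counts, far above the other libraries of its group at 1242.9 to 1744.5; the gap made up 0.674 of the group's range. Hspa8 in Sim1 heterozygous F_3 stood at 4983.2, far above 1358.4 to 1652 in the rest of its group, with a gap of 0.849 of the range. Of 36 groups of values examined in this way 2 stood out, and chance gives about 5% of them.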

How the results depend on the processing

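No chaperone gene was called in any of the 35 alternative settings and 6 comparisons. The smallest adjusted p of a member over all of them was 0.325. Of all genes, the main fit and edgeR called 0% in these comparisons, and DESeq2 at most 0.0634%. At so low a share, the lack of calls is not particular to the chaperone genes. For the other settings this share is not given, so the lack of calls there cannot be set against it. Of 1616 alternative values 1449 kept their direction and side of the threshold. Of the 27 fold changes of 9 members, 18 changed sign in at least 1 setting, and the cause was not tested. The spread between 4 to 6 libraries and the few reads of low genes such as Dnajc22 limit what can be seen.

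Members at an unadjusted p under 0.05 numbered 4 of 67 with the promoter sgRNA against Sim1 heterozygous (4.08% of all genes in the same fit), and 0 in females only (4.36%), 2 without both B6 animals (3.19%) and 2 without promoter sgRNA M_1 and Sim1 heterozygous F_3 (4.90%), a setting chosen after seeing the data. With the enhancer sgRNA they numbered 5 (6.67%), and 2 with the authors' stabilized values (3.36%), 2 without both B6 animals (3.53%), 2 without promoter sgRNA M_1 and Sim1 heterozygous F_3 (3.57%), and 3 with only the compared groups fitted (3.58%). In the Sim1 heterozygous group against wild type they numbered 0 (3.75%), and 3 (9.37%), 1 (3.05%), 4 (5.97%) and 1 (3.96%) with stabilized values, without both B6 animals, without 4 libraries that earlier results set apart (promoter sgRNA F_5 and M_3, Sim1 heterozygous F_4 and wild type F_2) and with only the compared groups. Leaving out 1 library at a time gave 2 to 9, 2 to 14 and 0 to 5, with the highest each time without Sim1 heterozygous F_1, where 9.23%, 13.9% and 9.93% of all genes passed.

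With a replicate block on the label numbers the members at an unadjusted p under 0.05 numbered 7 (3.56% of all genes), 2 (5.64%) and 1 (4.58%), and Hspa8 (0.0999) and Hspa5 (0.0154) with the enhancer sgRNA and Hspa5 (-0.00313) in Sim1 heterozygous against wild type changed sign. Whether the label numbers pair the libraries could not be settled. The 20 same-label pairs correlated at -0.434 to 0.572, 12 of them above 0.1, and 3 of 18 libraries correlated best with their own label. Pairs of different labels were not counted beside them. Libraries of a label share sex and often age: the F_3 mice were all 4 months old and the M_3 mice 3 months.

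With the promoter sgRNA, signs turned without both B6 animals for Hspa1a (-0.14), Hspa1b (-0.39), Dnajb1 (-0.14), Hspa8 (0.14) and Hspa5 (-0.0109), and without promoter sgRNA M_1 and Sim1 heterozygous F_3 for Hspa1a (-0.40), Hspa1b (-0.75), Dnajb1 (-0.27), Hsph1 (-0.0622), Hspa8 (0.22), Hspa5 (-0.16) and Hspd1 (-0.0229); Hspb1 was 0.0517 without the 4 libraries. With the enhancer sgRNA, Hsph1, Hspa8 and Hspd1 turned to -0.10, 0.23 and -0.0457 without both B6 animals and to -0.0852, 0.20 and -0.0333 without promoter sgRNA M_1 and Sim1 heterozygous F_3. Hspa5 turned to 0.0118 with TMM scaling, 0.0608 with age added, 0.20 in females only and 0.0048 with only the compared groups. In Sim1 heterozygous against wild type, Hspa1b, Hsph1, Hsp90aa1 and Hspd1 turned to 0.30, 0.12, 0.0400 and 0.0705 without both B6 animals and to 0.49, 0.17, 0.10 and 0.14 without promoter sgRNA M_1 and Sim1 heterozygous F_3. Hspa1b was also 0.0013 with no covariate, 0.0677 in edgeR and 0.0777 in DESeq2, and Hspa5 -0.0106 with TMM scaling and -0.10 in females only.

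Leaving out 1 library at a time gave, with the promoter sgRNA, -0.14 to 0.37 for Hspa1a, -0.39 to 0.39 for Hspa1b, -0.14 to 0.14 for Dnajb1, -0.54 to 0.14 for Hspa8 and -0.0109 to 0.26 for Hspa5. With the enhancer sgRNA it gave -0.10 to 0.23 for Hsph1, -0.38 to 0.21 for Hspa8, -0.15 to 0.11 for Hspa5 and -0.0481 to 0.18 for Hspd1. In Sim1 heterozygous against wild type it gave -0.26 to 0.43 for Hspa1b, -0.19 to 0.16 for Hsph1, -0.30 to 0.0910 for Hsp90aa1, -0.74 to 0.0521 for Hspa8, -0.11 to 0.17 for Hspa5 and -0.12 to 0.12 for Hspd1. Without the 4 libraries the correlation of Hsp90aa1 and Hspa8 was -0.18 over the remaining libraries of the low Hspa8 level. That of Hspa5 and Dnajb11 was 0.630 without the 4 (adjusted permutation p = 0.0164). Without the 2 libraries farthest from the median, that of Hspa1a and Hspa5 was 0.455.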
